A study of Mus musculus with 10 samples.

Results

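The genes described here are 10 that move cholesterol out of cells or out of lysosomes: the efflux transporter genes Abca1 and Abcg1 and their relative Abca7, the lipid carrier genes Apoe and Pltp, the lysosomal genes Lipa, Npc1 and Npc2, and the genes Nceh1 and Cyp27a1, whose enzymes free stored cholesterol or oxidise it. They were chosen by symbol from the expression table, where all 10 were present among 36144 genes. RNA came from primary vascular smooth muscle cells grown from the aorta of male mice 8 weeks old. In 3 libraries, each from its own mouse, the mice carried Myh11-Cre-ERT2, a tamoxifen-dependent Cre driven by a smooth muscle promoter, with overexpression of Adamts7, a secreted metalloprotease. The other 3 libraries came from 3 wild-type mice, for which the labels name no Cre, so the driver and the overexpression cannot be told apart. Tamoxifen is not named in the sources used here, and cells were used between the second and the seventh passage without a passage per library. The title of the series places the comparison in the growth of smooth muscle foam cells in atherosclerosis.

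Cholesterol that enters a cell with lipoprotein is freed from its ester in the lysosome by the acid lipase of Lipa, handed from the soluble NPC2 protein to the membrane protein NPC1, and exported to other membranes. Excess cholesterol is stored again as ester, freed by neutral hydrolases such as that of Nceh1, and leaves the cell through ABCA1 to lipid-poor apolipoprotein or through ABCG1 to high-density lipoprotein. Oxysterols, some made by CYP27A1, activate the LXR receptors, which raise transcription of Abca1, Abcg1, Apoe and Pltp in macrophages. A smooth muscle cell or macrophage that takes in more cholesterol than it can release becomes a foam cell.

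Adamts7 stood at 98.7, 79.1 and 75.8 TPM in overexpression cultures, against 6.08, 6.18 and 8.20 TPM in wild-type cultures, which fits the genotype labels, although the titles of these 3 overexpression libraries begin with the wild-type abbreviation. TPM (transcript abundance corrected for length, on a common total per library) do not carry the number of reads, and the depth is therefore unknown. Overexpression replicate 3 stood apart: on the first principal component, with 51.4% of the variance, it lay at -0.67, against 18.6 and 39.4 for the other overexpression libraries and -20.3 to -16.8 for wild type. Of 22 macrophage markers 21 were tested, of which 20 were higher in every overexpression library than in any wild-type library and Mertk, named after its values were seen, was lower, against 14.3% of all genes tested that were higher without overlap and 12.9% lower. With all libraries limma called 0 of the 21, although 21 had an unadjusted p under 0.05, and without overexpression replicate 3 it called 19. The summed level of the 22 was 4138, 3304 and 1360 TPM in overexpression cultures, against 635, 889 and 812 TPM in wild type. Lyz2 and C1qa were the most abundant of them over the 6 libraries together, and Cd163, at 0 in 2 of the 3 wild-type libraries, did not exceed 0.051 TPM in any library. The smooth muscle markers Acta2 and Cald1 averaged 1764 and 1726 TPM in overexpression cultures and 1249 and 1554 TPM in wild-type cultures. The 10 smooth muscle markers summed to 5140, 6315 and 4686 TPM in overexpression cultures, against 4123, 4190 and 4073 TPM in wild-type cultures. Their log2 fold changes had a median of 0.40, and 7 of 10 were higher at an unadjusted p under 0.05 by limma, against 10.6% of all genes tested. The others, named after their values were seen, were Des, Mylk and Smtn, with log2 fold changes of 0.01, 0.03 and -0.12. Smtn was lower in every overexpression library than in any wild-type library. The endothelial markers Emcn and Cdh5 were also high for cultures labelled as smooth muscle. Their means were 1153 and 612 TPM in overexpression cultures and 2046 and 919 TPM in wild-type cultures. The 12 endothelial markers summed to 2390 to 3940.4 TPM in overexpression cultures, against 4656 to 5168 TPM in wild-type cultures. By limma 9 of the 12 were lower at an unadjusted p under 0.05, against 8.94% of all genes tested. Every overexpression library was below wild type in 8 of the 12, against 12.9%. Tek, Cldn5 and Vwf, named after their values were seen, did not reach that p, with log2 fold changes of -0.30, -0.09 and 0.13. Their wild-type means were 15.0, 5.49 and 16.4 TPM, and that of Kdr was 8.96 TPM. In bulk RNA a smaller number of cells of a type and less RNA per cell cannot be told apart.

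None of the 10 genes passed the test between genotypes. The test was limma on log2(TPM + 1) over 13131 genes averaging 1 TPM or more, called at a Benjamini-Hochberg adjusted p under 0.05, and all 10 genes entered it. It called 0.0152% of all genes tested, which is 2 genes, and 1 of these was Adamts7 itself (limma adjusted p = 0.00036). At an unadjusted p under 0.05 there were 3 of the 10, Lipa, Abcg1 and Apoe, all higher in overexpression cultures, and none was lower, where 10.6% of all genes were higher and 8.94% lower at that level (19.5% in both directions). The libraries of the genotypes did not overlap for 5 of the 10, with Abcg1, Lipa, Apoe and Npc1 higher and Abca7 lower, against 27.2% of all genes tested, 14.3% higher and 12.9% lower. The median log2 fold change of the 10 genes was 0.14, and that of all genes tested was -0.009. An exact permutation test of any single gene on 3 against 3 libraries cannot give a two-sided p below 0.1.

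**Figure D1:**
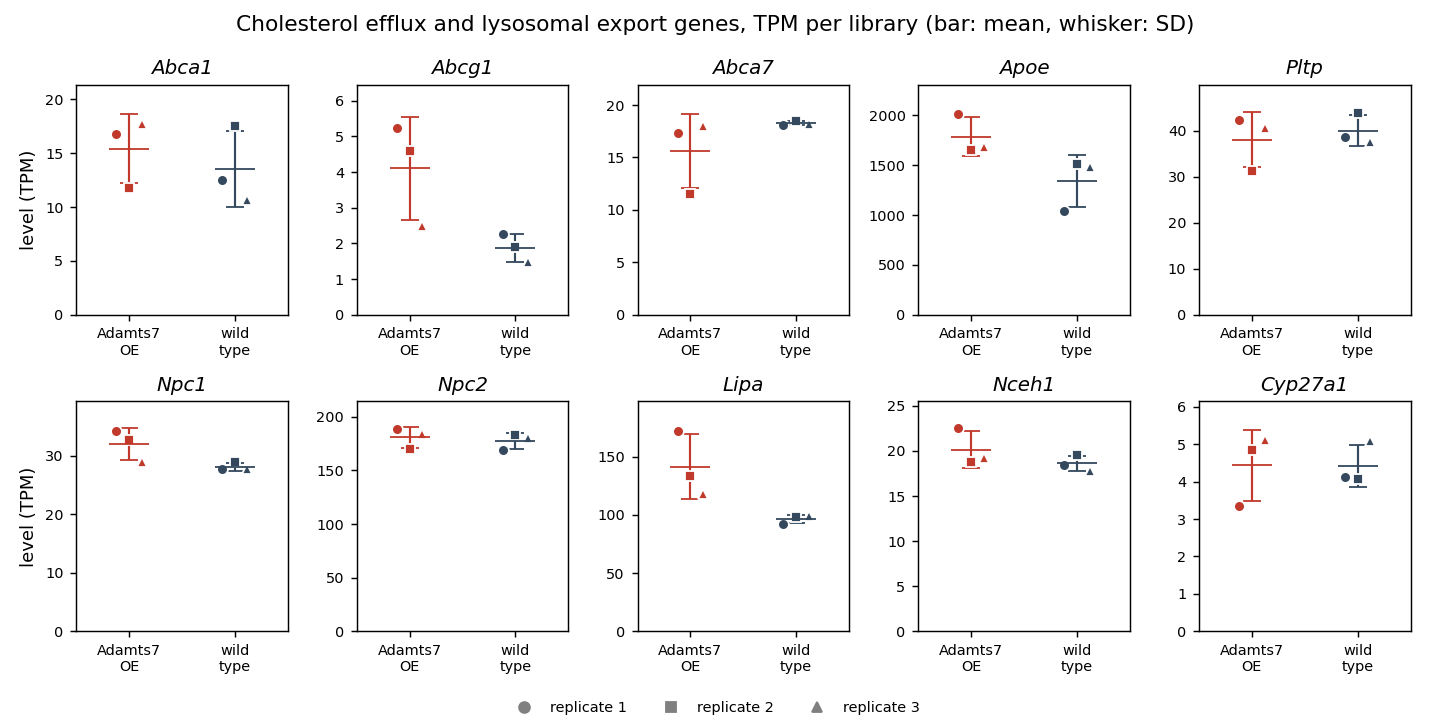
Level of each gene in TPM (vertical axis, linear from 0) in the 3 Adamts7 overexpression libraries (OE, red) and the 3 wild-type libraries (dark blue), with a horizontal bar at the mean and whiskers of 1 SD. The overexpression points lie above the wild-type points for Abcg1, Apoe, Lipa and, narrowly, Npc1, and below them for Abca7.

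On the TPM scale, which allows levels of different genes to be compared, Apoe was by far the most abundant of the 10 genes in both genotypes. In overexpression cultures the order by mean was Apoe at 1784 TPM, Npc2 at 181, Lipa at 141, Pltp at 38.1, Npc1 at 32.0, Nceh1 at 20.2, Abca7 at 15.6, Abca1 at 15.4, Cyp27a1 at 4.43 and Abcg1 at 4.11. There Lipa overlapped Npc2, Npc1 overlapped Pltp, Abca1 overlapped Abca7, and Abcg1 overlapped Cyp27a1 in the ranges of their 3 libraries. In wild-type cultures the order of the means was the same, with Apoe at 1343 TPM, Npc2 at 177, Lipa at 96.3, Pltp at 40.0, Npc1 at 28.2, Nceh1 at 18.6, Abca7 at 18.3, Abca1 at 13.6, Cyp27a1 at 4.42 and Abcg1 at 1.88. Only Nceh1 and Abca7 overlapped among neighbours in wild type. Apoe alone made up 79.5% to 80.0% of the summed TPM of the 10 genes in overexpression libraries and 73.2% to 78.8% in wild-type libraries, and it ranked 54th by mean level among all genes in overexpression cultures and 73rd in wild type.

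Of the transporter genes, none of which passed the test, Abcg1 and Abca1 had positive and Abca7 a negative log2 fold change, and the differences between these genes were not tested. Abcg1 (ENSMUSG00000024030.7, chromosome 17 from 31057694 to 31117984 in GRCm38.p6, the assembly of mm10) encodes the half-transporter that passes cholesterol to high-density lipoprotein. It had 5.25, 4.59 and 2.49 TPM in overexpression cultures, against 2.26, 1.89 and 1.48 TPM in wild-type cultures. Every overexpression library was above every wild-type library, but replicate 3 only narrowly, and the means differed 2.19 times. Its log2 fold change, on the log2(TPM + 1) scale, which understates the change of so low a gene, was 0.79 ± 0.24 (SE, n = 3 each) with a 95% interval from 0.22 to 1.36, and limma gave an adjusted p of 0.162. Without overexpression replicate 3 the log2 fold change was 1.05 and limma's adjusted p was 0.0242.

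Abca1 (ENSMUSG00000015243.4, chromosome 4 from 53030789 to 53159988), the full transporter that loads lipid-poor apolipoprotein, had 16.8, 11.7 and 17.7 TPM in overexpression cultures, against 12.5, 17.5 and 10.6 TPM in wild-type cultures. The libraries of both genotypes overlapped widely. The log2 fold change was 0.18 ± 0.21 (SE), with a 95% interval from -0.31 to 0.67 and an adjusted p of 0.671 from limma. The value rested on single libraries, at 0.031 with replicate 3 of wild type left out and 0.37 with replicate 2 of wild type left out. The ratio of Abcg1 to Abca1 was 0.313, 0.392 and 0.141 in overexpression libraries, against 0.180, 0.108 and 0.140 in wild-type libraries, and overexpression replicate 3 lay within the wild-type range.

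Abca7 (ENSMUSG00000035722.15, chromosome 10 from 79996453 to 80015572), a close relative of Abca1 that also moves phospholipid, was lower, at 17.3, 11.6 and 18.0 TPM in overexpression cultures, against 18.1, 18.5 and 18.2 TPM in wild-type cultures. The ranges did not overlap, yet replicates 1 and 3 were close to wild type and replicate 2 stood well below. The log2 fold change was -0.24 ± 0.16 (SE; limma adjusted p = 0.451), and it was -0.045 without overexpression replicate 2.

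The promoter of Abca1 is shown because it is a well-known target of sterol control among the 10 genes and because its E-box and GC boxes can be compared with the promoters of the lysosomal genes further on. The window covers chr4:53159846-53160145 on the minus strand of GRCm38.p6, from 250 bases before the start site to 50 bases into the gene, from RefSeq. Capitals mark the E-box CACGTG and the GC box GGGCGG on either strand, where it reads CCGCCC on the other.

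Abca1 promoter: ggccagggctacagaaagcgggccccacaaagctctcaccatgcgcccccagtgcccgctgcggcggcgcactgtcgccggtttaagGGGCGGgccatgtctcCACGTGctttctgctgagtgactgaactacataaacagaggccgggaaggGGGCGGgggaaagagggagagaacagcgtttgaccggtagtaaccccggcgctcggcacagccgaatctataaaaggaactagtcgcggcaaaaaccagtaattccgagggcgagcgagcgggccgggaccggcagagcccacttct

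Promoter windows were on hand for 8 of the 10 genes, 10 windows in all as Apoe has 3, and 6 motifs were searched on both strands. The E-box CACGTG lay at -147 from the start site in Abca1 and at -26 in Nceh1, and 7.15% of the 32851 mouse promoters of the same length held it. The core of the lysosomal CLEAR element, TCACGTGA, which includes the E-box, was in none of these windows, with 0.974% of all promoters holding it. The nuclear receptor half-site AGGTCA was in none, with 16.3% of all promoters holding it, and neither was its direct repeat with 4 bases between, which 0.015% of all promoters held. Only these exact letters were searched, so looser forms of the repeat, which LXR also binds, were not looked for and may be present. The Abca1 window above holds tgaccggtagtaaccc, which reads GGGTTA, 4 bases and CGGTCA on the other strand. That stretch differs from the exact repeat, so it was neither counted nor marked. The sterol response element, searched as TCACNCCAC, was in none, with 1.24% of all promoters holding it. The GC box was in the windows of Abca1, Abca7, Cyp27a1, Lipa, Npc2 and Pltp, against 35.7% of all promoters. These matches describe letters in 1 window per start site and were not tested for any effect.

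Neither of the secreted lipid carrier genes passed the test. Apoe (ENSMUSG00000002985.16, chromosome 7 from 19696244 to 19701310) encodes apolipoprotein E, which takes up cholesterol leaving macrophages and smooth muscle cells. It had 2009.7, 1656 and 1687 TPM in overexpression cultures, against 1044.5, 1507.5 and 1478 TPM in wild-type cultures. All 3 overexpression libraries were above wild type, replicate 1 by a wide margin and replicates 2 and 3 by a small one over wild-type replicates 2 and 3, and wild-type replicate 1 was the lowest. The means were 1784 ± 196 TPM in overexpression cultures and 1343 ± 259 TPM in wild-type cultures (SD, n = 3 each). Its log2 fold change was 0.42 ± 0.15 (SE) with limma's adjusted p at 0.204. Without wild-type replicate 1 the log2 fold change was 0.25. Pltp (ENSMUSG00000017754.13, chromosome 2 from 164839518 to 164857708), the phospholipid transfer protein of lipoprotein remodelling, had 42.3, 31.3 and 40.6 TPM in overexpression cultures, against 38.6, 43.8 and 37.5 TPM in wild-type cultures. Those ranges overlapped, and the log2 fold change was -0.08 with a 95% interval from -0.37 to 0.21.

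None of the lysosomal genes passed the test, and Lipa and Npc1, but not Npc2, had all overexpression libraries above wild type. Lipa (ENSMUSG00000024781.16, chromosome 19 from 34492316 to 34527474), lysosomal acid lipase, had 172, 134 and 118 TPM in overexpression cultures, against 92.1, 98.1 and 98.6 TPM in wild-type cultures. The lowest overexpression library, replicate 3, was above the highest wild-type library. The means were 141 ± 27.9 TPM in overexpression cultures and 96.3 ± 3.62 TPM in wild-type cultures (SD, n = 3 each), with the wider spread in overexpression cultures. The log2 fold change was 0.53 ± 0.13 (SE), with a 95% interval from 0.23 to 0.84 and limma's adjusted p at 0.131, the smallest of the 10 genes. It was 0.65 with an adjusted p of 0.0233 by limma without overexpression replicate 3, and 0.38 without overexpression replicate 1.

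Npc2 (ENSMUSG00000021242.9, chromosome 12 from 84754559 to 84773112), which binds cholesterol in the lysosome lumen, had 188, 170.0 and 184 TPM in overexpression cultures, against 169, 183 and 180.1 TPM in wild-type cultures. The ranges nearly coincided, and the log2 fold change was 0.03 ± 0.06 (SE) with a 95% interval from -0.12 to 0.18. The ratio of Lipa to Npc2 within a library, which a scaling factor of the library does not alter and which was chosen after the values were seen, was 0.914, 0.787 and 0.641 in overexpression libraries, against 0.545, 0.537 and 0.547 in wild-type libraries. It was above wild type in all 3 overexpression libraries and lowest of them in replicate 3.

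Npc1 (ENSMUSG00000024413.14), the membrane protein that exports cholesterol from the lysosome, had 34.3, 32.7 and 29.04 TPM in overexpression cultures, against 27.7, 28.98 and 27.8 TPM in wild-type cultures. Replicate 3 cleared the highest wild-type library by a margin far below the spread between libraries. The log2 fold change was 0.18 ± 0.08 (SE; limma adjusted p = 0.286), with a 95% interval from -0.01 to 0.37.

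**Figure D2:**
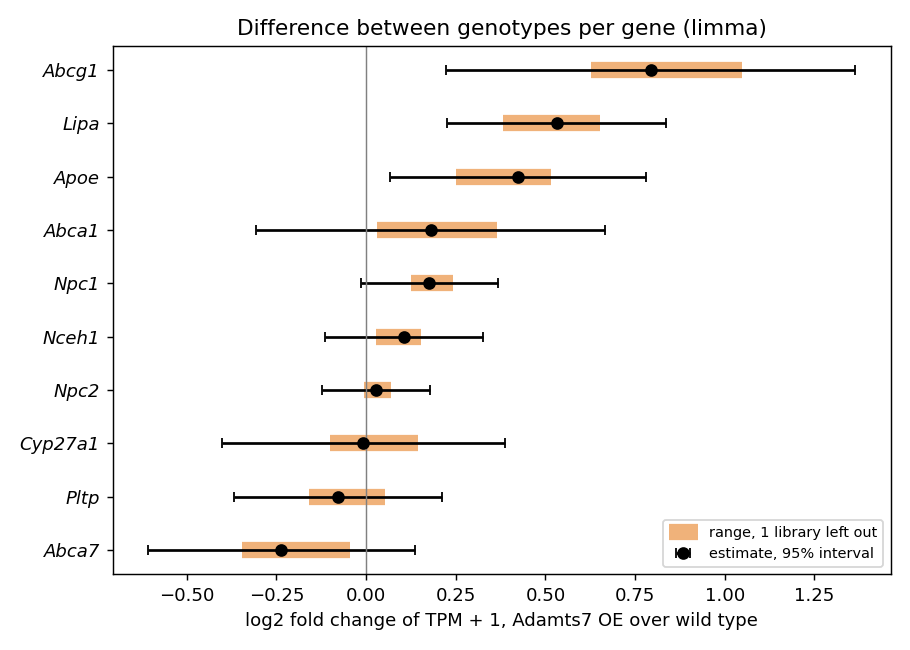
Log2 fold change of TPM + 1, Adamts7 overexpression over wild type, for each gene (black points, with 95% intervals from limma), and the range of the value when each of the 6 libraries was left out in turn (orange bars). The intervals of Abcg1, Lipa and Apoe lie above 0, and the other 7 include 0.

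Promoters of Lipa and Npc2 are shown as the lysosomal pair with the most and the least different levels. They cover chr19:34527425-34527724 and chr12:84773063-84773362, both on the minus strand of GRCm38.p6, from RefSeq, and capitals mark GGGCGG on either strand.

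Lipa promoter: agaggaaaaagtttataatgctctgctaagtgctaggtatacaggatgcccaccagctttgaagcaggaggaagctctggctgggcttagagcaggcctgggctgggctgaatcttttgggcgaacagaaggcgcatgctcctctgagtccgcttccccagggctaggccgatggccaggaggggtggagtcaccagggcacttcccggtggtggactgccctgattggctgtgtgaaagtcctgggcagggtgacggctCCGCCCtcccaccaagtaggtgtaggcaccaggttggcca

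Npc2 promoter: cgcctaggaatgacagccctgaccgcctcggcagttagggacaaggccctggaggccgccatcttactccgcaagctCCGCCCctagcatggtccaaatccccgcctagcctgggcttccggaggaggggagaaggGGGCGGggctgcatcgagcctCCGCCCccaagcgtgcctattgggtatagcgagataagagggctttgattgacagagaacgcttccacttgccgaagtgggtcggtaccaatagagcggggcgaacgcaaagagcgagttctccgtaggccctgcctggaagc

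The window of Npc2 held 3 GC boxes, all before the start site, and that of Lipa held 1, at 10 bases past it. Neither held an E-box or the CLEAR core.

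The hydrolase and the oxidase differed little between genotypes. Nceh1 (ENSMUSG00000027698.14, chromosome 3 from 27183004 to 27245266), a neutral cholesterol ester hydrolase, had 22.5, 18.8 and 19.2 TPM in overexpression cultures, against 18.5, 19.6 and 17.8 TPM in wild-type cultures, and only replicate 1 of overexpression was above every wild-type library. Its log2 fold change was 0.11 with a 95% interval from -0.11 to 0.33. Cyp27a1 (ENSMUSG00000026170.6, chromosome 1 from 74713148 to 74737897), the mitochondrial sterol 27-hydroxylase, had 3.35, 4.83 and 5.11 TPM in overexpression cultures, against 4.12, 4.07 and 5.07 TPM in wild-type cultures. Overexpression replicate 1 was the lowest of all 6 libraries, and the log2 fold change was -0.008 with a 95% interval from -0.40 to 0.39.

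Within the overexpression cultures, Lipa, Abcg1 and Npc1 were highest where the macrophage markers were highest. The macrophage markers summed to 4138, 3304 and 1360 TPM in replicates 1, 2 and 3, and each of these 3 genes had its values in the same order. The share of all genes tested with that order was not computed, so the match is only described. In wild-type replicates 1, 2 and 3 the sum was 635, 889 and 812 TPM. There Npc1, Apoe, Npc2 and Abca7 had their values in the order of the sum, whereas Abcg1, Lipa and the remaining genes did not. For Npc1 and Abca7 wild-type replicates 1 and 3 nearly coincided, at 27.72 and 27.78 TPM and at 18.12 and 18.18 TPM. Npc2 did not follow the sum in the overexpression libraries, nor did Apoe or Abca7. The part of the macrophage markers in the values of Abcg1, Lipa, Apoe and Npc1 was not tested. Endothelial markers were lowest and smooth muscle markers highest in overexpression replicate 2, where Abca1, Abca7, Apoe, Pltp, Npc2 and Nceh1 also had their lowest value among the overexpression libraries, and the part of these markers was not tested either. That library lay furthest from wild type on the first principal component, at 39.4. The share of all genes lowest there was not computed.

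**Figure D3:**
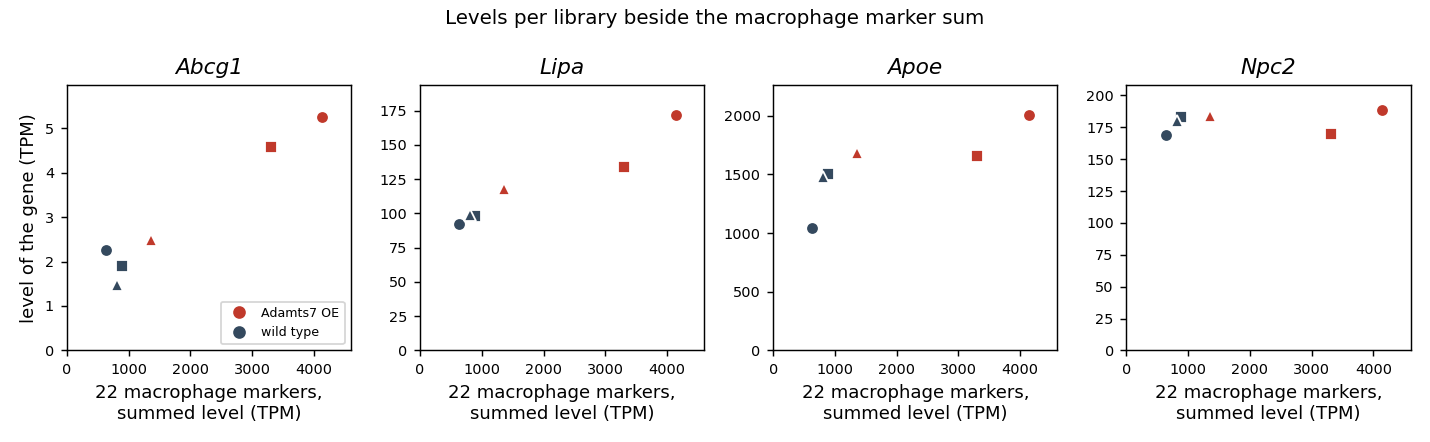
Level of Abcg1, Lipa, Apoe and Npc2 in TPM (vertical axes from 0) against the summed TPM of 22 macrophage markers (horizontal axis) in the 3 Adamts7 overexpression libraries (red) and the 3 wild-type libraries (dark blue), where circle, square and triangle are replicates 1, 2 and 3. Lipa runs from 118 to 172 TPM over sums of 1360 to 4138 TPM in overexpression libraries, while Npc2 stays between 169 and 188 TPM over all 6 libraries.

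**Figure D4:**
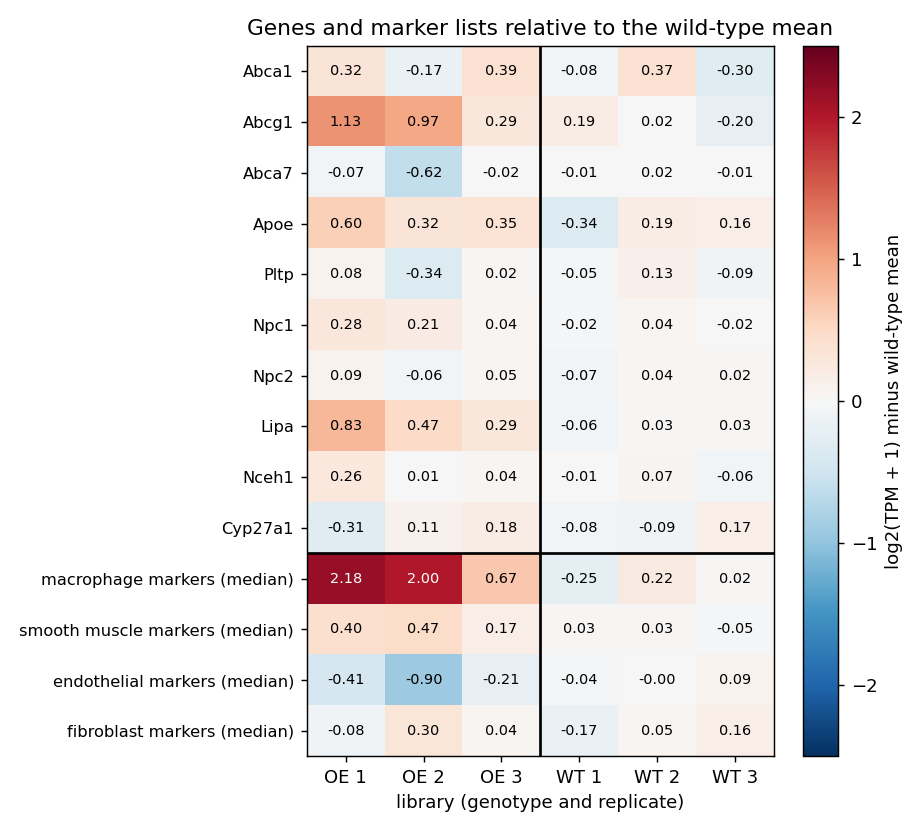
Log2(TPM + 1) of each gene in each library minus its wild-type mean, with the same value for the median of 4 marker lists below the line (columns are libraries, OE for Adamts7 overexpression and WT for wild type, and red is higher). Abcg1 and Lipa have their lowest overexpression value in replicate 3, at 0.29 each, where the macrophage median is 0.67, against 2.18 and 2.00 in replicates 1 and 2.

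Other genes of cholesterol handling were taken from 7 lists of 84 genes, of which 68 reached the level for testing. None passed limma's threshold, and at an unadjusted p under 0.05 there were 6 higher and 8 lower, which is 20.6% against 19.5% of all genes tested. Among apolipoproteins and partners of lipoprotein, Lpl, the lipoprotein lipase, had 84.6, 54.7 and 29.3 TPM in overexpression cultures, against 15.7, 19.0 and 15.5 TPM in wild-type cultures, the largest log2 fold change of the lists, at 1.57. Clu, the lipid-binding chaperone clusterin, was lower, with 359, 307 and 466 TPM in overexpression cultures and 507, 488 and 504 TPM in wild-type cultures. Apoc1, a neighbour of Apoe named after its values were seen, was listed at 0 in all 6 libraries. Among 15 other ABCA and ABCG genes, Abcg3 had a log2 fold change of 1.05 and Abca9 one of 0.52, both with all overexpression libraries above wild type, while Abca3 and Abca4, named after their values were seen, had -0.35 and -0.49 with all overexpression libraries below wild type.

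The LXR list gave 0 of 10 genes higher and 2 lower at an unadjusted p under 0.05, a share near the 19.5% of all genes tested. These were Nr1h2, the gene of LXR beta, with a mean of 59.99 TPM in overexpression cultures and 72.1 TPM in wild-type cultures and a log2 fold change of -0.26, and Arl4c, an LXR target, with -0.33. Their adjusted p-values from limma were 0.170 and 0.167. A list of 22 genes joined sterol transfer between lysosome and endoplasmic reticulum with more general lysosomal genes, such as Lamp1, Lamp2 and Smpd1. In it Anxa6, an annexin of late endosomes, had a log2 fold change of 0.18. Gramd1a, which carries cholesterol to the endoplasmic reticulum, had -0.19, and the median of this mixed list was 0.01. In the storage list 5 genes were tested, with 1 higher and 2 lower at an unadjusted p under 0.05 by limma. The lower ones were the triglyceride lipase gene Pnpla2, at -0.44, and the hormone-sensitive lipase gene Lipe, at -0.55. For Lipe wild-type replicate 3, at 4.66 TPM, lay within the overexpression range. Plin2, named after its values were seen, had 0.16 with all overexpression libraries above wild type. Of the oxysterol enzymes, Fdx1, which passes electrons to mitochondrial P450 enzymes, had 0.23 and Hsd3b7 -0.17. In the list of lysosomal control by TFEB, Mcoln1, a lysosomal calcium channel gene, had -0.28 and the transcription factor gene Mitf 0.50.

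Without overexpression replicate 3, limma called 6.3% of the 13141 genes tested, 524 of them higher (3.99% of the genes tested) and 304 lower, and it called 2 of the 10 genes, Abcg1 and Lipa, both higher. The same fit called 19 of 21 macrophage markers higher, 3 of 10 smooth muscle markers higher and 6 of 12 endothelial markers lower, and their part in the calls of Abcg1 and Lipa was not tested. In the wider lists it then called Lpl, Apoc2, Abcg3 and Mitf higher and Clu lower. Apoc2, an activator of lipoprotein lipase named after its values were seen, had 8.23, 7.35 and 2.20 TPM in overexpression cultures, against 1.66, 1.38 and 2.22 TPM in wild-type cultures, so replicate 3 lay within the wild-type range.

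Footprint scores from ATAC-seq reflect both the openness around a motif and its protection from the transposase, and a mean score does not separate these. They were deposited by the authors as 1 mean per motif and genotype over 2 merged mice each, so they carry no SD and no test. For 14 motifs of LXR and FXR with RXR, RXR alone, SREBF and the TFE and MITF factors, the mean score was lower under overexpression in 13, and 43.6% of all 879 motifs were lower. The motif of NR1H2 with RXRA, the LXR beta pair, scored 0.187 in overexpression cultures and 0.191 in wild-type cultures over 22679 sites. The authors' count of these sites called bound went the other way, at 1399 in overexpression cultures and 1384 in wild-type cultures. The motif of TFEB, which drives lysosomal genes, scored 0.241 in overexpression cultures and 0.248 in wild-type cultures over 16297 sites. Of these, 2047 were called bound in overexpression cultures and 2146 in wild-type cultures. The 14 differences ran from -0.0154 to 0.0003, within a range of -0.0529 to 0.0682 over all motifs, and related motifs can share sites. Scores are averaged over the genome and do not name sites at the 10 genes.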

How the data were processed

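The authors deposited 1 table of TPM per gene and library, made with kallisto per the labels, on mm10 per the submitters' processing notes. Its version, the transcript annotation and the step to gene level are not stated there. kallisto splits reads that match several transcripts by estimate, so values of similar genes can affect each other. The authors also deposited 1 table of footprint scores per motif, with the columns of TOBIAS BINDetect per the file headers and counts of motif sites searched. In it the 2 mice of a genotype are merged per the labels, and the scores were only described.

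Libraries were grouped by the labelled genotype and numbered by the mouse in their titles. The labels give 1 batch for all libraries. The test was limma 3.58.1 under R 4.3.3 on log2(TPM + 1), with a trended eBayes step, two-sided, for genes averaging 1 TPM or more in the 6 libraries, with Benjamini-Hochberg adjustment over all of them. No read counts could be recovered from TPM, so no count test was run. On simulated data for 13131 genes, limma called 82 of 100 genes made to differ by 1 on the log2 scale, 94 of 100 made to differ by 2, and 8 others. The simulated noise was independent between genes, and every simulated overexpression library had the same shift. No simulated library stood apart as overexpression replicate 3 did, so these counts do not give the power in the real libraries. Mouse numbers were not used to pair the genotypes in the test. Same-numbered libraries had correlations of -0.02, 0.06 and 0.02 in their deviations, and the others ran from -0.057 to 0.035. With 3 libraries per genotype these values cannot show whether the numbers are paired.

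The genes and lists were chosen with earlier results of these data known. All 10 genes are named, with the 2 of smallest p from each wider list and the 2 macrophage, smooth muscle and endothelial markers most abundant by mean over the 6 libraries. Fibroblast markers had a median log2 fold change of 0.11 over 5 tested genes. The most abundant of them, Gsn and Dcn, went in opposite directions, at 0.31 and -0.58, each without overlap between genotypes. Of 6 adipocyte markers 2 were tested, Fabp4 and Pparg, with log2 fold changes of 0.84 and 0.37, while Lep was at 0 in all libraries. Symbols were matched to the reference for 99.4% of genes. Promoters were searched and figures drawn with Python 3.11.15, pandas 2.3.3 and matplotlib 3.10.9.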

Additional observations from a re-analysis of the deposited data

How the results depend on the processing

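Over 17 alternatives the count of the 10 genes called by limma was 0 in 15, among them pseudocounts of 0.1 and 0.5, the filters, the scalings and 5 of the 6 single libraries left out. It was 4 with libraries weighted by quality (Abcg1, Apoe, Lipa and Npc1, all higher). Under those weights 2728 of all 13131 genes tested were called, 1491 higher and 1237 lower. The count for the 10 genes ranged from 0 to 2 when 1 library was left out. It was 2 without overexpression replicate 3, where 6.3% of all genes tested were called. The median log2 fold change of the 10 genes was 0.24 under quality weights and 0.077 to 0.17 with 1 library left out. The count over all genes was 1 at a mean of at least 5 TPM, 2728 under quality weights and 1 with the mouse number as a replicate block, and ranged from 1 to 828 with 1 library left out. With the block, for which a pairing of the mice was not established, 0 of the 10 genes passed. Weak values changed sign. With 1 library left out, Npc2 ranged from -0.0069 to 0.070, Cyp27a1 from -0.10 to 0.14 and Pltp from -0.16 to 0.053. Npc2 was at -0.0035 without overexpression replicate 1 and -0.0069 without wild-type replicate 1. Cyp27a1 was at 0.0015 under median-of-ratios scaling, 0.14 without overexpression replicate 1 and 0.077 without wild-type replicate 3. Pltp was at 0.041 under quality weights and 0.053 without overexpression replicate 2. The causes were not tested. Abcg1, Lipa, Apoe, Npc1, Abca1 and Nceh1 kept a positive value and Abca7 a negative one under every alternative run for them, but Abcg1 and Cyp27a1 were too low for the filter at 5 TPM. With 3 mice per genotype and unknown depth, small differences of low genes such as Cyp27a1 could not be resolved.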
